A study of Mus musculus with 12 samples.

Results

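The imprinted growth genes are 10 genes taken from a list of symbols: Igf2, H19, Dlk1, Meg3, Grb10, Plagl1, Peg3, Mest, Ndn and Snrpn. All 10 were found among the 54735 gene symbols that each of the 12 libraries lists. They are picked by symbol and not by a cut on measured values, but they were chosen with earlier results of these data known. RNA was measured in the pallium of mouse embryos of the C57/Bl6 strain at E13.5; the pallium is the roof of the developing forebrain and becomes the cortex. Embryos of 3 genotypes were compared, with 4 in each, and all 12 embryos carried Emx1-Cre. Control embryos were Rnu11 wt/flx and Trp53 wt/wt, so they carried a floxed Rnu11 allele too. Embryos of the cKO group were Rnu11 flx/flx and Trp53 wt/wt. Those of the dKO group were Rnu11 flx/flx and Trp53 flx/flx. Rnu11 encodes U11, an RNA component of the spliceosome that removes minor introns, and Trp53 encodes p53. Emx1-Cre acts in pallial progenitors and their offspring, so cells that enter the pallium from elsewhere, such as vessel cells and microglia, keep their floxed alleles.

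An imprinted gene is transcribed mainly from the copy inherited from one parent, and which copy is silent depends on DNA methylation laid down in the germ line. Many imprinted genes lie in clusters that share a control region. As a group they are known for setting the growth of the embryo, with paternally expressed genes such as Igf2 and Peg3 tending to promote growth and maternally expressed genes such as H19 and Grb10 tending to restrain it. In the embryonic brain, Igf2 is known to be made mainly by meninges, vessels and choroid plexus, and Ndn and Snrpn mainly by neurons. The values here are TPM, a transcript abundance scaled for gene length and for the sum of the library. They do not separate the parental copies, so they cannot show whether imprinting itself was kept.

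Of the 10 genes, 9 reached a mean of 1 TPM over the 12 libraries and were tested with all other such genes, 11764 in total. Dlk1 stayed under that mean and is described from a fit without the filter. In the cKO pallium 7 of the 9 were called higher than control (limma, Benjamini-Hochberg adjusted p under 0.05) and 0 were called lower: H19, Igf2, Meg3, Mest, Snrpn, Ndn and Peg3. The other two, Grb10 and Plagl1, were not called. Much of the transcriptome was also higher in that comparison. Of all genes tested, 34.3% were called higher and 1.09% lower, and the median gene stood 0.25 higher on the log2 scale. Each change is therefore also given after median-shift centring, which subtracts from every library the median log2 deviation of its genes from the average library. After centring, 5 of the 9 were called higher (H19, Meg3, Mest, Igf2 and Snrpn) against 3.72% of all genes, and 0 lower against 2.96%. After rescaling each library to an equal sum of its protein-coding genes, 6 were called higher against 11.3% of all genes.

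Comparing dKO with control, 0 of 9 were called on the deposited values, where 5.19% of all genes were called. At an unadjusted p under 0.05, 4 were higher and 0 lower. After centring, 2 were called higher, Igf2 and Mest, against 3.74% of all genes, and after protein-coding rescaling 3, with Ndn, against 5.44%. Between the mutants, 3 of 9 were called lower in dKO than in cKO (H19, Meg3 and Snrpn), where 38.8% of all genes were called lower. After centring, 1 was called lower in that comparison, Snrpn, against 3.83% of all genes, and after rescaling 2, Meg3 and Snrpn, against 8.28%. The values of H19, Meg3 and Snrpn in dKO did not overlap those in cKO, which held for 32.8% of all genes in that direction. The median change of the 9 tested genes was 0.61 (cKO over control), 0.14 (dKO over control) and -0.23 (dKO over cKO), beside 0.25, -0.01 and -0.26 for all genes. After centring, the medians of the 9 were 0.36, 0.16 and 0.04.

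**Figure D1:**
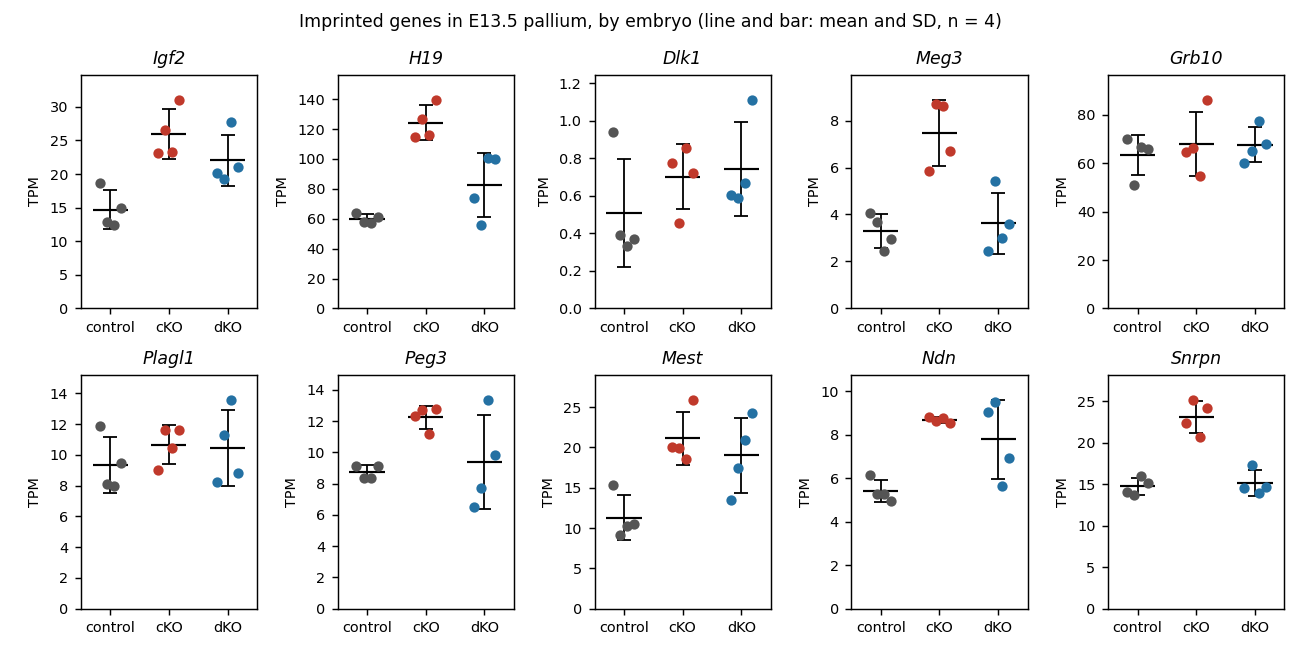
TPM of each imprinted gene (y axis, from 0, a separate scale per gene) in each embryo, shown as points by genotype, with the mean (line) and SD (bar) of the 4 embryos. For H19, Igf2, Meg3, Mest, Snrpn, Ndn and Peg3 the lowest cKO embryo lies above the highest control embryo, whereas the Grb10, Plagl1 and Dlk1 values overlap. Of all genes tested, 32.7% were higher in cKO than in control without overlap.

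The targeted genes checked the genotype labels. Rnu11 measured 674, 521, 724 and 643 TPM in the control embryos, then 159, 145, 115 and 158 for cKO and 145, 142, 169 and 199 for dKO. The cKO mean was 22.6% and the dKO mean 25.6% of control. Trp53 measured 6.37, 2.90, 2.63 and 3.37 TPM in the controls, 4.18, 4.04, 3.92 and 4.83 in cKO and 0.920, 1.49, 1.13 and 1.36 in dKO, whose mean was 32.1% of control. Both genes therefore followed their labels in every embryo. Depth is unknown because TPM keeps none. Protein-coding genes took between 14.4% and 19.99% of the TPM of a library, so other RNA classes held most of each library.

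Sequences help to place the members whose RNA changed. H19, Igf2 and Mest each contain a microRNA gene within their RefSeq span, and Meg3 contains Mir770 and Mir1906-1. The mature products within H19, Igf2 and Mest are shown, from RefSeq on GRCm38.p6. They are made from the same stretch of the genome as the transcripts measured here. Capitals mark the seed, bases 2 to 8.
miR-675-5p (within H19): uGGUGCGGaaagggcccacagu
miR-675-3p (within H19): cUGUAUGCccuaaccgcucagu
miR-483-5p (within Igf2): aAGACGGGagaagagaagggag
miR-483-3p (within Igf2): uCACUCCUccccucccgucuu
miR-335-5p (within Mest): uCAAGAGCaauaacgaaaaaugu
miR-335-3p (within Mest): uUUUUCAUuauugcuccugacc
These 6 seeds all differ from each other. The hairpin genes Mir675, Mir483 and Mir335 were listed at 0 in all 12 libraries, as were Mir770 and Mir1906-1, which lie within Meg3. The measured changes are thus those of the host transcripts, and the mature microRNAs were not measured here.

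Igf2 and H19 are neighbours on chromosome 7. Igf2 encodes insulin-like growth factor 2, a secreted growth factor expressed from the paternal copy (chr7:142650768-142666816). H19 is a long noncoding RNA expressed from the maternal copy (chr7:142575530-142578146). A shared control region and shared enhancers regulate both genes, which are normally active on opposite parental chromosomes.

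H19 measured 64.2, 57.7, 56.9 and 61.1 TPM in the control embryos, 115, 126, 116 and 140 in cKO, and 74.0, 55.9, 101 and 99.8 in dKO. Every cKO embryo exceeded every control embryo. The dKO embryos were spread, with embryos 3 and 4 near the cKO range, embryo 1 between the groups and embryo 2 below the control range. The cKO mean was 124 ± 11.6 (SD, n = 4) against 60.0 ± 3.35 in the controls, a 2.07-fold difference. On the log2 scale H19 rose by 1.04 ± 0.163 (SE, limma adjusted p = 0.00132), and by 0.79 after centring (adjusted p = 0.0114), a call made in all 12 fits that left out 1 embryo. For dKO against control the change was 0.42 (adjusted p = 0.173) and missed the threshold, which it passed without dKO 2 (adjusted p = 0.0249). From cKO to dKO it fell by 0.62 (adjusted p = 0.0120), but after centring the change was -0.35 (adjusted p = 0.208) and the call was lost.

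Igf2 gave 18.7, 12.8, 12.4 and 14.9 TPM in the controls, 23.2, 26.5, 23.2 and 31.1 in cKO, and 20.1, 19.3, 27.7 and 21.1 in dKO. All 8 mutant embryos lay above all 4 controls, so neither mutant group overlapped control; 32.7% of all genes were higher without overlap in cKO and 5.14% in dKO. The mean was 14.7 ± 2.87 in the controls, 25.99 ± 3.73 in cKO and 22.03 ± 3.85 in dKO (SD, 4 embryos each). Igf2 rose in cKO by 0.79 ± 0.149 (SE, limma adjusted p = 0.00301), and by 0.54 ± 0.123 after centring (adjusted p = 0.0218). In dKO the change of 0.56 narrowly missed the threshold on the deposited values (limma adjusted p = 0.0506) and, at 0.58 ± 0.123, passed it after centring (adjusted p = 0.0152). That centred dKO call was made in all 12 fits that each left out 1 embryo, and the centred cKO call was lost without control 2, 3 or 4 or cKO 2 or 4 (adjusted p up to 0.0695). Between the mutants Igf2 differed by -0.23 as deposited and 0.04 after centring, both short of the threshold (limma adjusted p = 0.219 and 0.892).

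The ratio of Igf2 to H19 within a library does not depend on a common scale of that library, apart from the pseudocount of 1 TPM. Its log2 values were -1.73, -2.08, -2.12 and -1.97 in the controls, -2.26, -2.21, -2.27 and -2.13 in cKO, and -1.83, -1.49, -1.82 and -2.19 in dKO. On this scale all 4 cKO embryos lay below all 4 controls, but the ratios of TPM without a pseudocount overlapped, with cKO 4 at 0.222 and control 3 at 0.217. The difference of -0.25 had an exact two-sided permutation p of 0.0286, the smallest that 70 assignments of 4 against 4 can give, and 0.0857 after adjustment over the 9 ratio tests. With no pseudocount the difference was -0.22 (adjusted p = 0.129). The dKO mean differed from the control mean by 0.14 (exact p = 0.429) and from the cKO mean by 0.39 (exact p = 0.0571, adjusted 0.0857). None of the 9 ratio comparisons passed the threshold of 0.05 after adjustment, with or without the pseudocount.

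Dlk1 and Meg3 form a pair of the same kind on chromosome 12. Dlk1 encodes a transmembrane relative of the Notch ligands that limits differentiation and is expressed from the paternal copy (chr12:109452485-109463336). Meg3 is a maternally expressed long noncoding RNA (chr12:109540996-109571729). Downstream of it, Rian and Mirg are maternally expressed noncoding RNAs that carry small nucleolar RNAs and microRNAs.

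Meg3 read 4.07, 3.66, 2.43 and 2.97 TPM in the controls, 5.87, 8.71, 8.62 and 6.70 in cKO, and 2.46, 5.43, 3.01 and 3.58 in dKO. The cKO embryos exceeded all controls and all dKO embryos, while dKO and control overlapped. Its cKO mean of 7.47 ± 1.42 (SD, n = 4) was 2.28-fold that of control, the largest such ratio among the 10 genes. Meg3 rose in cKO by 0.99 ± 0.189 (SE, limma adjusted p = 0.00335), and by 0.74 after centring (adjusted p = 0.0382). The centred call was lost in 6 of 12 fits that left out 1 embryo (control 3 or 4, cKO 1, 2 or 3, or dKO 4), with adjusted p up to 0.113. In dKO it was 0.09 above control (limma adjusted p = 0.854). From cKO to dKO it fell by 0.90 (limma adjusted p = 0.00426); after centring the change of -0.63 missed the threshold (adjusted p = 0.0718).

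Dlk1 stayed low throughout. The control embryos had 0.938, 0.390, 0.332 and 0.372 TPM, those of cKO 0.775, 0.455, 0.856 and 0.724, and those of dKO 0.603, 0.587, 0.668 and 1.11. The 3 groups overlapped; control embryo 1 stood above its group, and the other control embryos lay below all mutant embryos. In the limma fit without a filter it differed from control by 0.19 in cKO (adjusted p = 0.427) and by 0.22 in dKO (adjusted p = 0.626). The log2 ratio of Dlk1 to Meg3 averaged -1.51 ± 0.175 (SD, n = 4) in control, -2.31 ± 0.336 in cKO and -1.38 ± 0.433 in dKO. On that scale it was lower in each cKO embryo than in each control (difference -0.80, exact p = 0.0286, adjusted 0.0857). For dKO against cKO the difference was 0.93 (exact p = 0.0571, adjusted 0.0857), and for dKO against control 0.13 (exact p = 0.629). Since Dlk1 lies under 1 TPM in nearly every embryo, the pseudocount shapes this ratio. Without it the groups overlapped, with cKO 1 at 0.132 TPM of Dlk1 per TPM of Meg3 and control 2 at 0.107. The 3 log2 differences then became -0.63 for cKO against control, 1.15 for dKO against cKO and 0.53 for dKO against control (adjusted p = 0.214, 0.154 and 0.367).

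Rian, the other long noncoding RNA of that cluster with an appreciable level, followed Meg3. Mean TPM was 20.8 ± 1.72 for the controls, 41.1 ± 3.72 for cKO and 25.1 ± 4.88 for dKO (SD, 4 embryos each). Rian rose in cKO by 0.95 ± 0.127 (SE, limma adjusted p = 0.000511), and by 0.70 after centring (adjusted p = 0.00935). Of the 16 tested cluster neighbours of the members, 8 were called higher in cKO as deposited (34.3% of all genes) and 1, Rian, after centring (3.72%). Mirg, at a control mean of 1.33 TPM, rose by 0.53 in cKO (limma adjusted p = 0.0159) and lost that call after centring (0.28, adjusted p = 0.277).

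**Figure D2:**
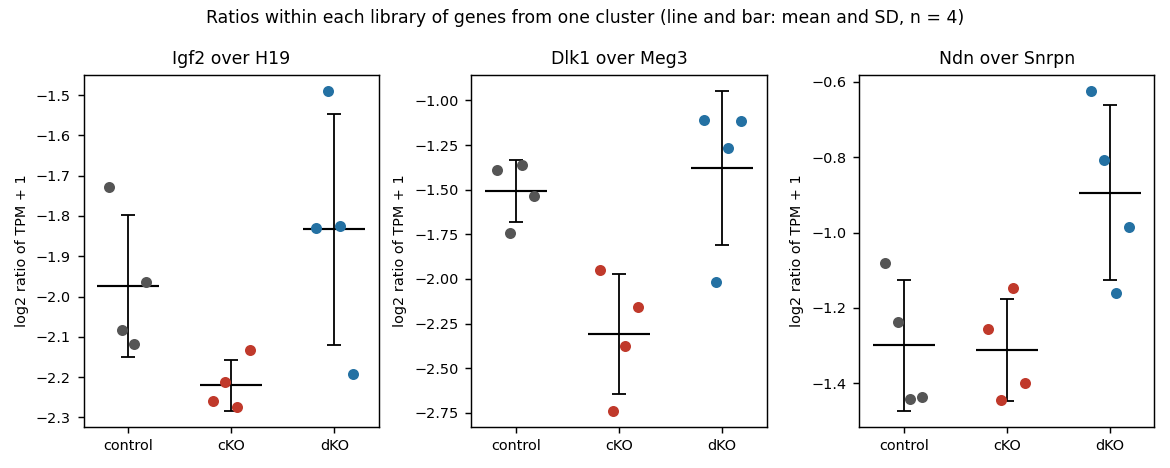
The log2 ratio of TPM + 1 (y axis) of a pair of genes from the same imprinted cluster, within each library, by genotype; points are embryos, lines and bars the mean and SD of 4. With the pseudocount the cKO embryos lie below all controls for Igf2 over H19 and for Dlk1 over Meg3, which does not hold without it, and for Ndn over Snrpn the dKO mean is the highest of the 3.

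Among the growth regulators outside those clusters, Mest showed the largest changes from control. Mest encodes a protein of the hydrolase fold, is expressed from the paternal copy and is known from mesoderm and mesenchyme of the embryo (chr6:30733506-30748466). It measured 15.4, 9.10, 10.2 and 10.5 TPM in the controls, 20.1, 19.97, 18.6 and 25.9 in cKO, and 13.4, 17.4, 20.9 and 24.3 in dKO. All cKO embryos were above all controls, and only dKO embryo 1 lay within the control range, below control embryo 1. Its mean was 1.87-fold control in cKO and 1.68-fold control in dKO. Mest rose in cKO by 0.86 ± 0.185 (SE, limma adjusted p = 0.00587), and by 0.61 after centring (adjusted p = 0.0480). The dKO change was 0.70 as deposited (limma adjusted p = 0.0502) and 0.71 after centring (adjusted p = 0.0229). The centred cKO call was made in 3 of 12 fits that left out 1 embryo (control 1, dKO 1 or dKO 4) and reached an adjusted p of 0.123 in the others. The centred dKO call was lost without control 2, 3 or 4 or dKO 3 or 4 (adjusted p up to 0.0632).

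Peg3, a zinc finger protein of the paternal copy (chr7:6703892-6730462), gave 9.15, 8.36, 8.38 and 9.13 TPM in the controls, 12.3, 12.7, 11.2 and 12.8 in cKO, and 6.48, 7.73, 13.4 and 9.85 in dKO. Its cKO values were tight and above control, and its dKO values ran from below the control range to above the cKO range. The rise of 0.44 in cKO was the weakest called (limma adjusted p = 0.0461). It lost its call after centring (0.19, adjusted p = 0.528) and in 9 of 12 fits that left out 1 embryo (any control or cKO embryo, or dKO 4), with adjusted p up to 0.106. The dKO mean was 0.04 above control (limma adjusted p = 0.917). Usp29, the neighbour of Peg3 that shares its promoter region, rose by 0.58 in cKO (limma adjusted p = 0.00340) and by 0.33 after centring, where it was not called (adjusted p = 0.149).

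Grb10 and Plagl1 were the tested members without a call in any of the 3 comparisons. Grb10 encodes an adaptor that binds the insulin and IGF1 receptors and restrains growth; it is expressed from the maternal copy in most tissues and from the paternal copy in neurons (chr11:11930499-12037428). It read 69.9, 51.0, 66.8 and 65.7 TPM in the controls, 64.4, 66.1, 54.9 and 86.3 in cKO, and 60.3, 65.2, 77.6 and 67.8 in dKO. The 3 groups overlapped, and Grb10 was the most abundant member in control, although its level did not separate from H19 (60.0) beyond the spread. Its change from control was 0.09 in cKO and 0.10 in dKO (limma adjusted p = 0.622 and 0.766). Between the mutants it was 0.01 as deposited (adjusted p = 0.966) and 0.28 ± 0.109 after centring (SE, adjusted p = 0.153). The sign of the cKO value depended on the scaling: it was -0.16 after centring and -0.06 after rescaling the libraries to an equal protein-coding sum.

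Plagl1, a zinc finger transcription factor of the paternal copy known to act on other imprinted genes (chr10:13090832-13131694), measured 11.9, 8.10, 7.96 and 9.47 TPM in the controls, 9.002, 11.6, 10.4 and 11.6 in cKO, and 8.20, 11.3, 13.6 and 8.81 in dKO. These ranges overlapped throughout. Its change of 0.18 in cKO (limma adjusted p = 0.359) became -0.07 after centring, and its change in dKO was 0.14 (adjusted p = 0.691). The letters GGGGCCCC, a Plagl1 binding consensus that reads the same on both strands, occurred in 1.08% of 32851 RefSeq promoter windows (250 bases before to 50 after a start site). Of the 19 windows of 9 members, 1 held it, at Peg3. The p53 half-site, which reads the same on both strands, occurred in 8.36% of all windows and in 2 of the 19, at Igf2 and Snrpn.

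Ndn and Snrpn lie in the Prader-Willi cluster on chromosome 7 and are expressed from the paternal copy, chiefly in neurons. Ndn encodes necdin, a growth suppressor of postmitotic neurons (chr7:62348277-62349928). Snrpn encodes a protein of spliceosomal small nuclear ribonucleoproteins in brain (chr7:59982495-60450177). The RNA of Snrpn also carries the upstream reading frame Snurf, so the split of reads between those symbols is uncertain.

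Both were higher in cKO, and both have a promoter window with the letters CGCATGCG, a core of the binding site of NRF1 that reads the same on both strands. That motif was looked for after the sequences had been seen. It occurred in 1.87% of all windows and in 5 of the 19 member windows, 4 at alternative Snrpn starts and 1 at Ndn. The Snrpn starts are not independent: the upstream stretches of 3 of them share runs of 19 to 34 bases. The 250 bases before the start are shown for Ndn (chr7:62348027-62348276, plus strand) and for the outermost Snrpn start (chr7:60450178-60450427, minus strand), from RefSeq on GRCm38.p6, with the motif in capitals.
Ndn upstream: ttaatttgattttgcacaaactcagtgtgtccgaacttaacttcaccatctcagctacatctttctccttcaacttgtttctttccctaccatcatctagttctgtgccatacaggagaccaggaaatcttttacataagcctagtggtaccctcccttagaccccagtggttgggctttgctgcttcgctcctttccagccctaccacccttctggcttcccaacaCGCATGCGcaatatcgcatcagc
Snrpn upstream: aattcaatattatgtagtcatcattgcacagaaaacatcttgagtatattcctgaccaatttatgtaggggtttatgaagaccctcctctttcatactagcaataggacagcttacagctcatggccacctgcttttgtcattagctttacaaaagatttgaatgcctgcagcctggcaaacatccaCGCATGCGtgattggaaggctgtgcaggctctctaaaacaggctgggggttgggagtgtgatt
The motif ends 16 bases before the Ndn start and 56 bases before that Snrpn start. Such a match describes the letters and does not show binding.

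Snrpn measured 14.1, 13.7, 16.02 and 15.1 TPM in the controls, 22.4, 25.1, 20.7 and 24.2 in cKO, and 14.5, 17.4, 13.9 and 14.7 in dKO. The cKO embryos stood above all 8 others, while dKO and control shared a range. The cKO mean was 1.57-fold that of control. Snrpn rose in cKO by 0.61 ± 0.0918 (SE, limma adjusted p = 0.000987), and by 0.36 after centring (adjusted p = 0.0151), a centred call lost without cKO 1 or cKO 2 (adjusted p up to 0.0564). In dKO it was 0.03 above control (limma adjusted p = 0.900). Against cKO it fell by 0.58 in dKO (limma adjusted p = 0.00103), and by 0.31 after centring (adjusted p = 0.0356), a call lost in 7 of 12 fits that left out 1 embryo (control 4, cKO 1, 2 or 3, or dKO 1, 3 or 4; adjusted p up to 0.115).

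Ndn gave 6.14, 5.25, 5.26 and 4.96 TPM in the controls, 8.81, 8.60, 8.79 and 8.54 in cKO, and 9.06, 9.50, 5.66 and 6.94 in dKO. The cKO values were nearly equal to each other and above every control. In dKO, embryos 1 and 2 exceeded the cKO range and embryos 3 and 4 did not, the reverse of their order for H19 and Mest. Ndn rose in cKO by 0.60 ± 0.127 (SE, limma adjusted p = 0.00538); after centring the change of 0.35 missed the threshold (adjusted p = 0.139), and after rescaling to an equal protein-coding sum the change of 0.46 passed it (adjusted p = 0.0317). The dKO change was 0.44 as deposited (limma adjusted p = 0.0692), 0.46 after centring (adjusted p = 0.0509) and 0.50 after rescaling (adjusted p = 0.0300). Without dKO embryo 3 the centred dKO call was made (adjusted p = 0.00954).

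Within a library, the log2 ratio of Ndn to Snrpn averaged -1.30 ± 0.173 among controls, -1.31 ± 0.136 among cKO and -0.89 ± 0.231 among dKO embryos (SD, 4 each). The difference between cKO and control was -0.01 (exact permutation p = 0.857), within the spread between embryos. The dKO mean was above control by 0.41 and above cKO by 0.42 (exact p = 0.0571 for each, adjusted 0.0857). Of the 5 tested neighbours, Snurf rose by 0.80, Snhg14 by 0.51 and Ube3a by 0.32 in cKO (limma adjusted p = 0.00478, 0.0276 and 0.0295), and 0 were called after centring, where 1 was higher and 1 lower at an unadjusted p under 0.05. The 3 calls, made where 34.3% of all genes were called higher, fell to 1 without control 1, control 4 or cKO 2. Snhg14, the long noncoding RNA that hosts small nucleolar RNAs downstream of Snrpn, averaged 25.8 ± 6.59 TPM in the controls, 36.5 ± 3.52 in cKO and 17.9 ± 1.90 in dKO. From cKO to dKO it fell by 0.99 (limma adjusted p = 0.00112), and by 0.72 after centring (adjusted p = 0.0373).

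**Figure D3:**
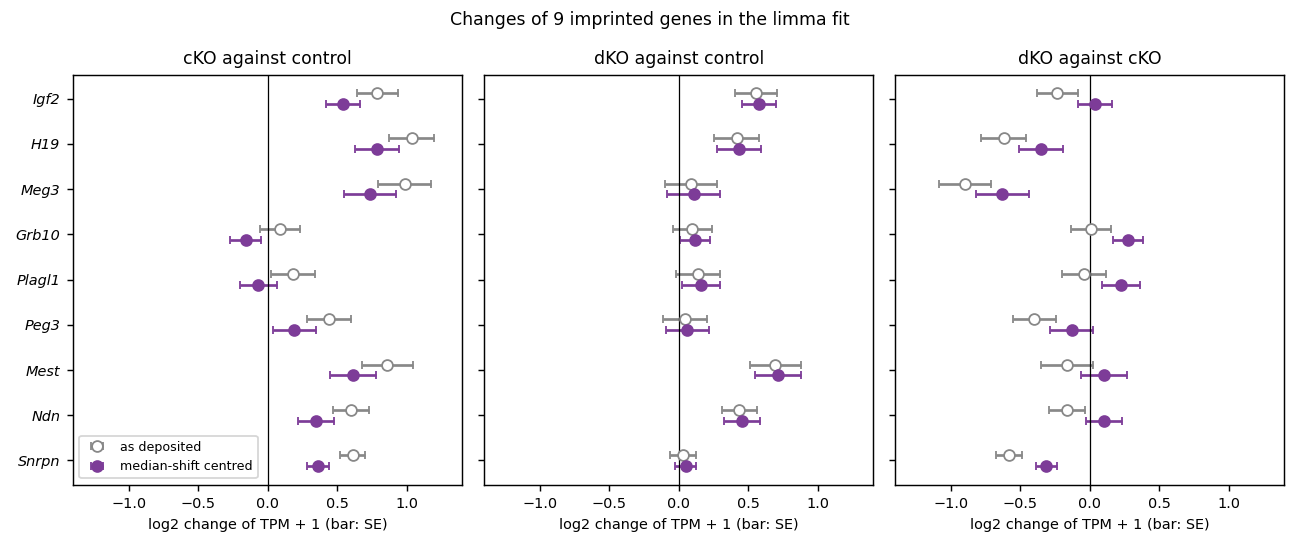
Log2 change of TPM + 1 (x axis, bar: SE from limma) of the 9 tested genes in the 3 comparisons, from the deposited values (open) and after median-shift centring (filled). In cKO H19, Meg3, Mest, Igf2 and Snrpn were called higher under both scalings. Ndn and Peg3 stay above 0 under both but lost their calls after centring, and Grb10 and Plagl1 change sign with the scaling. In dKO Mest and Igf2 are furthest from control.

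Ordered by mean TPM in the controls, the members ran from Grb10 (63.4 ± 8.43) and H19 (60.0 ± 3.35), through Snrpn (14.8 ± 1.03), Igf2 (14.7 ± 2.87), Mest (11.3 ± 2.80), Plagl1 (9.35 ± 1.82), Peg3 (8.76 ± 0.444), Ndn (5.40 ± 0.509) and Meg3 (3.28 ± 0.729), down to Dlk1 (0.508 ± 0.288; SD, n = 4 each). Neighbours in that order from Snrpn to Peg3 did not separate beyond their spread. In cKO H19 came first, at 124 ± 11.6, and Grb10 next, at 67.9 ± 13.2.

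Other imprinted genes gave the setting for these changes. Outside the members' clusters, 17 imprinted genes were tested; as deposited, limma called 14 higher in cKO, where 34.3% of all genes were, and 0 lower, with a median change of 0.40. The count was 9 without control 3, control 4, cKO 2 or cKO 4. After centring 2 were called higher (3.72% of all genes), Blcap and Sgce, with a median of 0.15. Blcap, whose intron hosts the imprinted gene Nnat, averaged 9.65 ± 1.61 TPM in the controls, 15.9 ± 2.09 in cKO and 13.1 ± 0.911 in dKO. Its centred change was 0.42 in cKO and 0.44 in dKO (limma adjusted p = 0.0227 and 0.0170). Sgce, a sarcoglycan, was 0.32 higher after centring in both cKO and dKO (limma adjusted p = 0.0351 and 0.0306). Inpp5f, an inositol phosphatase gene with an imprinted transcript, had a centred change of 0.20 in cKO (limma adjusted p = 0.153) and fell by 0.35 from cKO to dKO (adjusted p = 0.0228). Cdkn1c, a growth-restraining cell cycle inhibitor in the region next to Igf2, averaged 33.2 ± 5.01 TPM in the controls, 40.02 ± 5.52 in cKO and 37.9 ± 8.46 in dKO and was not called (limma adjusted p = 0.211 for cKO).

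Among all 33 tested imprinted genes that are not members, 22 were called higher in cKO as deposited (34.3% of all genes) and 3 after centring (3.72%), with a centred median of 0.09. For dKO against control 0 were called on the deposited values by limma, where 5.19% of all genes were called. At an unadjusted p under 0.05, 4 were higher and 2 lower, and after centring 2 were called higher (3.74% of all genes). The centred median of the 9 members for cKO against control was 0.36. No test was made of the difference between these groups of genes.

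**Figure D4:**
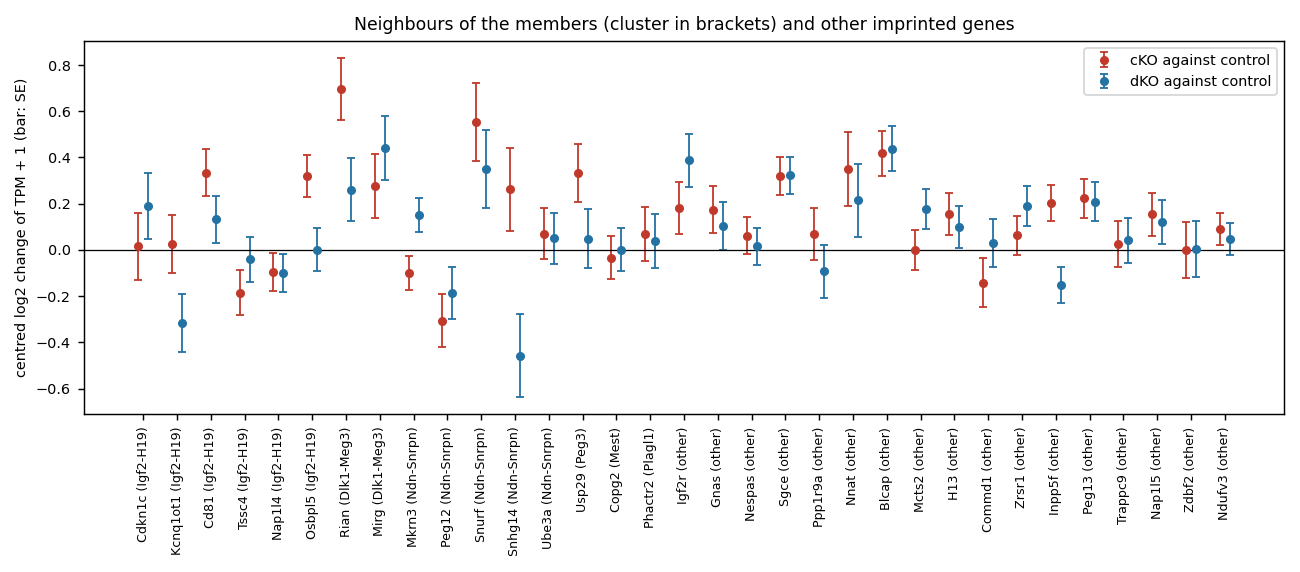
Centred log2 change of TPM + 1 against control (y axis, bar: SE from limma) of the 33 tested imprinted genes that are not members, for cKO and dKO; brackets give the member cluster a gene lies in. Rian (0.70), Snurf (0.55) and Blcap (0.42) have the highest cKO values, and limma called 3 of the 33 higher in cKO (3.72% of all genes).

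The genes through which Igf2 acts were examined next. IGF2 binds the IGF1 receptor and the insulin receptor, is cleared by IGF2R and is held in the tissue by IGF binding proteins. Of 14 tested genes of this pathway, limma called 6 higher in cKO as deposited (34.3% of all genes) and 1 after centring (3.72%), with 0 lower under either. The first count ran from 3, without control 2, control 3 or cKO 4, to 8 without cKO 3. Igfbp7, a binding protein of vessels, averaged 3.21 ± 0.621 TPM in the controls, 5.75 ± 0.547 in cKO and 4.35 ± 0.762 in dKO, and its centred change in cKO was 0.44 (limma adjusted p = 0.0305). The others called in cKO as deposited were Igfbp4 (0.70), Shc1 (0.52), Igfbp3 (0.45), Igf2r (0.43) and Igfbp2 (0.42), with limma adjusted p between 0.00590 and 0.0307. The receptor genes Igf1r and Insr were not called (limma adjusted p = 0.267 and 0.286 for cKO). In dKO against control 0 of the 14 were called by limma, with 3 higher and 0 lower at an unadjusted p under 0.05.

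Among 18 tested genes that maintain or read the imprint, 6 were called higher in cKO as deposited and 0 after centring, when 1 was higher and 1 lower at an unadjusted p under 0.05. That share is close to the 34.3% of all genes called higher, and the count was 3 without control 4, cKO 2 or cKO 4. Tet1, which oxidises methylated cytosine, had the largest value, a rise of 0.75 (limma adjusted p = 0.00750) that was 0.50 after centring (adjusted p = 0.0814). Zfp57 and Zfp445, zinc finger proteins that protect imprints, rose by 0.39 and 0.29 (limma adjusted p = 0.0432 and 0.0390), close to the median gene, and were not called after centring. In dKO Hells, a chromatin remodeller required for DNA methylation, fell by 0.41 against control (limma adjusted p = 0.0284), and by 0.39 after centring (adjusted p = 0.0209); the call as deposited was lost without any 1 control embryo, dKO 2 or dKO 3. Ctcf, whose product insulates Igf2 from its enhancers on the maternal copy, changed by 0.21 in cKO (limma adjusted p = 0.0925) and -0.20 in dKO (adjusted p = 0.241).

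Markers of some of the cell types that a pallial dissection can hold were higher in the mutants, and those of others were not. In bulk tissue, more cells of a type and more RNA per cell cannot be told apart. Summed TPM of the 15 mesenchyme and meninges markers ran from 43.3 to 73.6 in control, 81.0 to 98.3 in cKO and 68.6 to 93.7 in dKO. Of the 9 that were tested, 8 rose in cKO as deposited (34.3% of all genes) and 1, Dcn, after centring (3.72%). In dKO 1 rose as deposited (Col3a1), where 5.19% of all genes were called in either direction. After centring 4 rose in dKO (Col3a1, Lum, Pdgfra and Zic1), against 3.74% of all genes. The cKO count was 5 without cKO 4, and the dKO count ran from 0, without any 1 of 8 embryos (control 2, 3 or 4, cKO 1, 2 or 3, or dKO 3 or 4), to 4 without control 1, with 2 without dKO 2. Within the control group, embryo 1 had the highest sum of these markers (73.6, with the lowest at 43.3) and also the highest Igf2, H19, Mest, Meg3, Dlk1, Plagl1, Peg3, Grb10 and Ndn. Control 1 likewise had the highest control sum of every other marker list except choroid plexus, neuron and proliferation. Its protein-coding share was also the highest of the controls (16.3%). Among dKO embryos, 3 and 4 had the highest sums (93.7 and 88.4) and also the highest H19 and Mest. These embryos also led for endothelium (29.1 and 30.2), pericytes (11.7 and 11.6), microglia (23.7 and 24.4) and choroid plexus (310 and 183). Neuron and radial glia sums were highest in dKO 2.

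Vessel markers were higher too. The 12 endothelial markers summed to 17.4 to 21.5 TPM in the controls, 30.1 to 42.1 in cKO and 20.8 to 30.2 in dKO. In cKO 9 of 9 tested rose (34.3% of all genes), 4 of them after centring (3.72%). Pericyte markers (10) summed to 7.19 to 10.4, 13.2 to 18.1 and 8.77 to 11.7 TPM in the same order. The sums of the choroid plexus markers (9) overlapped between groups, at 45.0 to 106, 77.8 to 263 and 73.1 to 310 TPM. Of the 6 tested, 2 were called higher in cKO as deposited (34.3% of all genes) and 0 after centring (3.72%). Their median change as deposited was 0.72 in cKO and 0.63 in dKO, where 0 were called (5.19% of all genes in either direction). Markers listed at 0 in at least 1 library were Higd1b for pericytes and Kl and Prlr for choroid plexus, and none of these lists had a marker at 0 in all.

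Neuron markers summed to more in every cKO embryo than in any other. The 14 neuron markers summed to 260.1 to 286 TPM in the controls, 359 to 439 in cKO and 184 to 283 in dKO. Of 13 tested, 9 rose in cKO as deposited (34.3% of all genes) and 1, Gap43, after centring (3.72%). From cKO to dKO 11 fell (38.8% of all genes), 4 of them after centring (3.83%). Microglia and macrophage markers (12) summed to 14.8 to 18.7 TPM in the controls, 59.3 to 84.9 in cKO and 18.3 to 24.4 in dKO. Of 10 tested, 9 rose in cKO as deposited (34.3% of all genes) and 9 after centring (3.72%). From cKO to dKO 10 were called lower as deposited (38.8% of all genes) and 8 after centring (3.83%). Radial glia markers (12) summed to 271 to 310, 318 to 376 and 291 to 301 TPM. However, 2 of the 12 were called higher and 1 lower in cKO (34.3% and 1.09% of all genes), with a median change of -0.03. After centring 0 were higher and 3 lower (3.72% and 2.96% of all genes), with a median of -0.28.

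The sums of the remaining lists overlapped between cKO and control. Intermediate progenitor markers (8) summed to 63.6 to 83.4 TPM in the controls, 65.6 to 90.2 in cKO and 65.5 to 77.5 in dKO. In cKO 1 was called higher and 1 lower (34.3% and 1.09% of all genes), with a median change of 0.05. After centring 0 were higher and 3 lower (3.72% and 2.96% of all genes), with a median of -0.20. Proliferation markers (12) summed to 620 to 725, 524 to 746 and 468 to 572 TPM in that order, so every dKO embryo was below every control. In either mutant 1 of the 12 was called lower as deposited. Of all genes, 1.09% were called lower in cKO, and 5.19% were called in dKO in either direction. After centring 3 were called lower in cKO (2.96% of all genes), with a median of -0.29. In dKO 3 were also called lower after centring, with a median of -0.28, where 3.74% of all genes were called higher. Ventral interneuron markers (12) stayed between 6.48 and 13.54 TPM, with Dlx6, Nkx2-1 and Gsx2 listed at 0 in at least 1 library. Of the 4 tested, 1 was called higher and 0 lower in cKO (34.3% and 1.09% of all genes), with a median change of -0.11. After centring 0 were higher and 2 lower (3.72% and 2.96% of all genes), with a median of -0.36. Erythroid markers (12) summed to 2052 to 3114, 2508 to 3471 and 2231 to 2858 TPM, and 0 of the 9 tested were called in cKO by limma or passed an unadjusted p under 0.05. The part of these cell type markers in the changes of the imprinted genes was not tested.

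**Figure D5:**
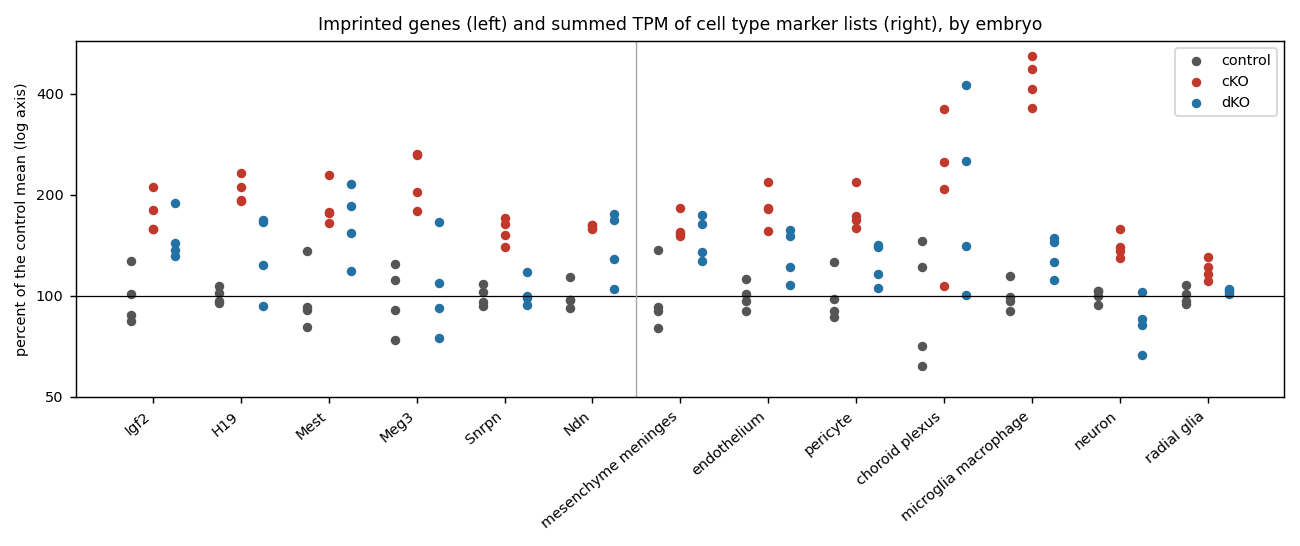
Values of 6 members (left of the line) and summed TPM of 7 marker lists (right), each embryo given as a percent of the control mean on a log axis. The dKO means of the members are 150% (Igf2), 138% (H19), 168% (Mest), 110% (Meg3), 102% (Snrpn) and 144% (Ndn) of control. Those of the marker lists are 150% (mesenchyme), 134% (endothelium), 126% (pericyte), 230% (choroid plexus), 133% (microglia), 84.1% (neuron) and 103% (radial glia).

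The genes whose levels most resembled each member over the 12 libraries were found by Pearson's r of centred log2(TPM + 1), taking the top pair of the 11764 genes for each. Such r values describe these libraries, which share their genotype groups, and carry no test. A pattern of group means like that of the member follows from how these genes were picked. For Mest they were Cavin1, a caveola protein (r = 0.990), and 2310026L22Rik (0.957). For Igf2 they were Cdh11, a cadherin of mesenchymal cells (0.936), and Il6st, the shared receptor of interleukin 6 type cytokines (0.935). For H19 they were Klhl13 (0.966) and Colec12, a scavenger receptor (0.958).

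Snrpn was most like 4833418N02Rik (0.962) and Gap43, a growth cone protein (0.943). Meg3 was most like Actl6b, a neuronal subunit of a chromatin remodelling complex (0.918), and Mapk9, a stress kinase (0.915). The Cavin1 mean was 2.13 TPM in the controls, 3.78 in cKO and 3.17 in dKO, above control in both mutants as for Mest. Gap43, with 23.8, 48.9 and 24.9 TPM in that order, had its highest mean in cKO, as for Snrpn.

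Ndn was closest to Bloc1s2, a subunit of lysosome biogenesis complexes (0.947), and Morc4 (0.897), and Peg3 to Iqgap1, a cytoskeletal scaffold (0.923), and P4ha1, a collagen hydroxylase (0.908). The members without a call had other partners: Plagl1 was closest to Gli3, a transcription factor of the Hedgehog pathway (0.945), and Kat6a, a histone acetyltransferase (0.938), and Grb10 to Dnmbp (0.942) and Marcks, an actin regulator (0.935). Gli3 stood at 3.43, 3.68 and 3.72 TPM and Marcks at 77.3, 77.6 and 84.2 TPM in the controls, cKO and dKO, so their group means lay close together.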

How the data were processed

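RNA of 12 pallia was sequenced from stranded total RNA libraries, per the labels' protocols. HISAT2 and mm10 are named in the submitters' processing notes. The quantifier, the gene models used and how reads matching several genes were assigned are not given in the sources used here. The deposited values are taken as TPM because each library sums to 1000000; depth, and so any counting interval, is unknown. Groups came from the genotype labels. That each library is 1 embryo is taken from the labels, and p-values measure the spread between these 12 samples.

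The test was limma 3.58.1 (R 4.3.3; lmFit, then eBayes with trend) on log2(TPM + 1) of the 11764 genes averaging at least 1 TPM. The 3 groups shared one fit, and p-values were adjusted by Benjamini-Hochberg over all genes tested and called under 0.05. Fold changes on this scale understate those of low genes. Protein-coding rescaling multiplied each library by 1 factor, from 0.798 to 1.10, to equalise its protein-coding sum (gene types from GENCODE M21, which holds 54106 of the symbols). Ratios within a library were compared by exact two-sided permutation over 70 assignments. The script was tested on simulated data.

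The text names all 10 members, the targeted genes, the 2 genes most like each tested member, and from each list the called genes with the largest changes, with markers where needed. Cdkn1c, Igf1r, Insr, Ctcf, Mirg, Usp29, Ube3a and Inpp5f are named beyond that rule or for their place in the cluster or pathway, after their values were seen. The members and the lists were chosen with earlier results of these data known. Promoter, microRNA and coordinate data are from RefSeq on GRCm38.p6; 9 of 10 members matched a promoter window. Alternatives were a pseudocount of 0.1, no filter, a filter at 5 TPM, median-shift centring, protein-coding rescaling, quantile normalization, fits of 2 groups only, a replicate block, ratios with no pseudocount, and leaving out each embryo. Leaving out embryos after centring was added after seeing the data.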

Additional observations from a re-analysis of the deposited data

Results flagged for a closer look

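Dlk1 was the gene with single embryos far from their group. In control, embryo 1 measured 0.938 TPM and the others 0.332 to 0.390, so the gap to the nearest embryo took up 0.903 of the range, above Dixon's critical value for 4 values. In dKO, embryo 4 measured 1.11 TPM and the others 0.587 to 0.668, with a gap of 0.846 of the range. Of 39 groups of 4 values examined, these 2 passed it. Chance passes about 1 group in 20, or 1.95 here.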

How the results depend on the processing

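Of the 9 members tested for cKO against control, 7 called became 4 after quantile normalization and 3 after median-shift centring with the replicate block; leaving out embryos gave 6 to 7, and 1 to 5 after centring, with 1 to 3 calls without control 2, 3 or 4 or any cKO embryo. For dKO against control, 0 called became 2 with a pseudocount of 0.1, with a mean of at least 5 TPM, after centring, and after centring with the replicate block, and 3 after protein-coding rescaling or quantile normalization; leaving out embryos gave 0 to 2 (2 without control 1 or cKO 4), and 1 to 3 after centring. For dKO against cKO, 3 called became 1 after centring or quantile normalization and 0 after centring with the replicate block; leaving out embryos gave 3 to 4, and 0 to 2 after centring.

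Directions that turned belonged to changes not called as deposited. For cKO against control, the change of Plagl1 was -0.067 after centring (with the replicate block too) and -0.0756 after quantile normalization; that of Grb10 was -0.16 after centring (with the block too), -0.064 after rescaling and -0.0501 after quantile normalization, and -0.0297 to 0.18 when embryos were left out; that of Trp53 was -0.0697 after centring (with the block too) and -0.0998 after quantile normalization. For dKO against control, leaving out embryos gave Meg3 -0.0852 to 0.21, Peg3 -0.13 to 0.18, Grb10 -0.000809 to 0.15 and Snrpn -0.0342 to 0.0681. For dKO against cKO, Igf2 was 0.0358 after centring (with the block too) and 0.0229 after quantile normalization, Ndn 0.105 after centring, 0.0338 after rescaling and 0.12 after quantile normalization, and in the same order Plagl1 0.23, 0.16 and 0.25 (-0.17 to 0.0549 without an embryo) and Mest 0.10, 0.0484 and 0.0944, the centred values being equal with the block; Grb10 gave -0.0861 to 0.13 without an embryo. Ndn over Snrpn for cKO against control was 0.0369 with a pseudocount of 0.1 and 0.0435 with none, and -0.0669 to 0.0607 without an embryo.

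What the replicate numbers stand for is not known here. Over 12 same-numbered pairs, correlations of deviations ran from -0.0954 to 0.0745, and 0 exceeded 0.1. Such correlations show no strong shared effect and cannot tell whether the embryos were paired. With the replicate block 6, 0 and 3 members were called in the 3 comparisons, and ratio differences kept their values, with 0.125 the smallest p that 4 pairs can give. The cause of these shifts was not tested. TPM limits what can be said of low genes such as Dlk1, since counts are unknown.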
